A study of Homo sapiens with 1 sample.

Results

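Chromatin accessibility at the nuclear genes of oxidative phosphorylation (OXPHOS) was examined in empty-vector control cells of 786-O, a human line derived from clear cell renal carcinoma. The assay was ATAC-seq, which uses the Tn5 transposase to cut open DNA and add sequencing adapters. The members were the GENCODE protein-coding genes whose symbols mark a subunit of the respiratory chain or of ATP synthase, taken by name and not by any measured value. They numbered 91 of 20033 protein-coding genes, with 40 in complex I, 4 in complex II, 10 in complex III, 17 in complex IV and 20 in complex V, including 2 read-through genes (NDUFC2-KCTD14 and ATP5MF-PTCD1) that share a start with a member. The data were the peak list of 1 library, with no replicate and no second condition. The DPF3a library that the study set beside this control was not analysed here, so no test between groups was made. Intervals below cover counting error in this library, not the spread between cultures. ATAC-seq reads the openness of a promoter, not the amount of its transcript.

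OXPHOS takes place in the inner mitochondrial membrane. Complexes I (NADH dehydrogenase) and II (succinate dehydrogenase) pass electrons to ubiquinone, complex III hands them to cytochrome c, complex IV (cytochrome c oxidase) gives them to oxygen, and complex V (ATP synthase) uses the proton gradient to make ATP. Mitochondrial DNA encodes some hydrophobic subunits of complexes I, III, IV and V, while the remaining subunits, and the whole of complex II, come from nuclear genes spread over many chromosomes. Many of these genes are known to respond to the transcription factors NRF1, GABP of the ETS family and YY1. Some subunits also have a second gene used in heart and skeletal muscle, lung or testis, or under low oxygen.

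The first sequences are examples, picked because they held a motif. For each complex, the 101 bases centred on a summit, the position of highest read depth in a peak, are given for the member of highest fold, 1 chromosome left aside, whose window held an NRF1, ETS or YY1 motif. They are hg38 reference sequence read 5′ to 3′ on the gene's strand, and capitals mark the motif. Of the 77 distinct promoter summits of the members, 5 had the NRF1 motif in this window, 4 the ETS motif and 3 the YY1 motif. NDUFB5, an accessory subunit of complex I (chr3:179604673-179604773, plus strand), held the YY1 motif. SDHD, a membrane anchor of complex II (chr11:112086687-112086787, plus strand), held NRF1 motifs on both strands that overlapped. UQCRQ of complex III (chr5:132866511-132866611, plus strand) held the ETS motif, COX5B of complex IV (chr2:97645908-97646008, plus strand) the NRF1 motif, and ATP5MK of complex V (chr10:103396606-103396706, minus strand) the ETS motif. In these 5 genes the first base of the motif lay 71, 110, 54, 136 and 160 bp upstream of the canonical transcription start site (TSS), respectively.
NDUFB5: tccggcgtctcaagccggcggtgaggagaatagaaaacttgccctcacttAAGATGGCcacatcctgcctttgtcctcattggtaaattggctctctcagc
SDHD: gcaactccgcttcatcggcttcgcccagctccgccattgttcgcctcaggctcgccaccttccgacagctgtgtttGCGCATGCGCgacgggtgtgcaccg
UQCRQ: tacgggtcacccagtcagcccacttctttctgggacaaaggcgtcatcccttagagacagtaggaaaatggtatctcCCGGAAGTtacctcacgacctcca
COX5B: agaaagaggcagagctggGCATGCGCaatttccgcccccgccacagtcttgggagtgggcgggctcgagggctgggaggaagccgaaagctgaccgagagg
ATP5MK: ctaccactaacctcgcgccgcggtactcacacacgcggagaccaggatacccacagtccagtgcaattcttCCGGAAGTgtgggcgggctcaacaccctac

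Most OXPHOS promoters were open. A gene was counted when a peak summit lay between 1 kb before and 100 bp after the TSS of any of its transcripts. By this rule 79 of 91 members had a promoter peak (86.8%; exact Clopper-Pearson 95% interval, 78.1 to 93), whereas the share of all protein-coding genes was 61.4%. The height of a peak was given by its fold, which compares the read depth (pileup) at the summit with a single genome-wide background. Both depths were raised by 1 before their ratio was taken, so a fold is smaller than the plain ratio of the depths. The 79 members had a median fold of 28.9 (25.2 to 35.6, from ranks), against 25.8 for protein-coding genes with a promoter peak. Of the 79, 47 were above that gene median and 32 were at or below it. For 32 members the counting interval lay wholly above the gene median, for 15 wholly below, and for 32 it covered it. The rank interval of the members' median began just below the gene median. Promoter peaks of fold 20 or more were found in 64 members (70.3%), against a background of 40.1%. Counting the canonical transcript alone, 74 members had a peak (81.3%), against 52.2%.

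Pileups of the members ran from 15 to 125 with a median of 55, so that a single fold carried a counting error of many per cent. The highest fold was that of ATP5F1B, the catalytic beta subunit of ATP synthase, at 64.9 (54.1 to 77.3). The interval of 19 members, ATP5F1B included, reached its lower bound, so that it could not be ranked above the rest of these beyond counting error. The lowest folds were those of NDUFA4L2, at 8.24 (4.84 to 13.3), and NDUFS4, an accessory subunit of complex I, at 8.76 (5.23 to 13.9). The members' median peak width was 1140 bp (377 to 2941), close to the 1196 bp of protein-coding genes.

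**Figure D1:**
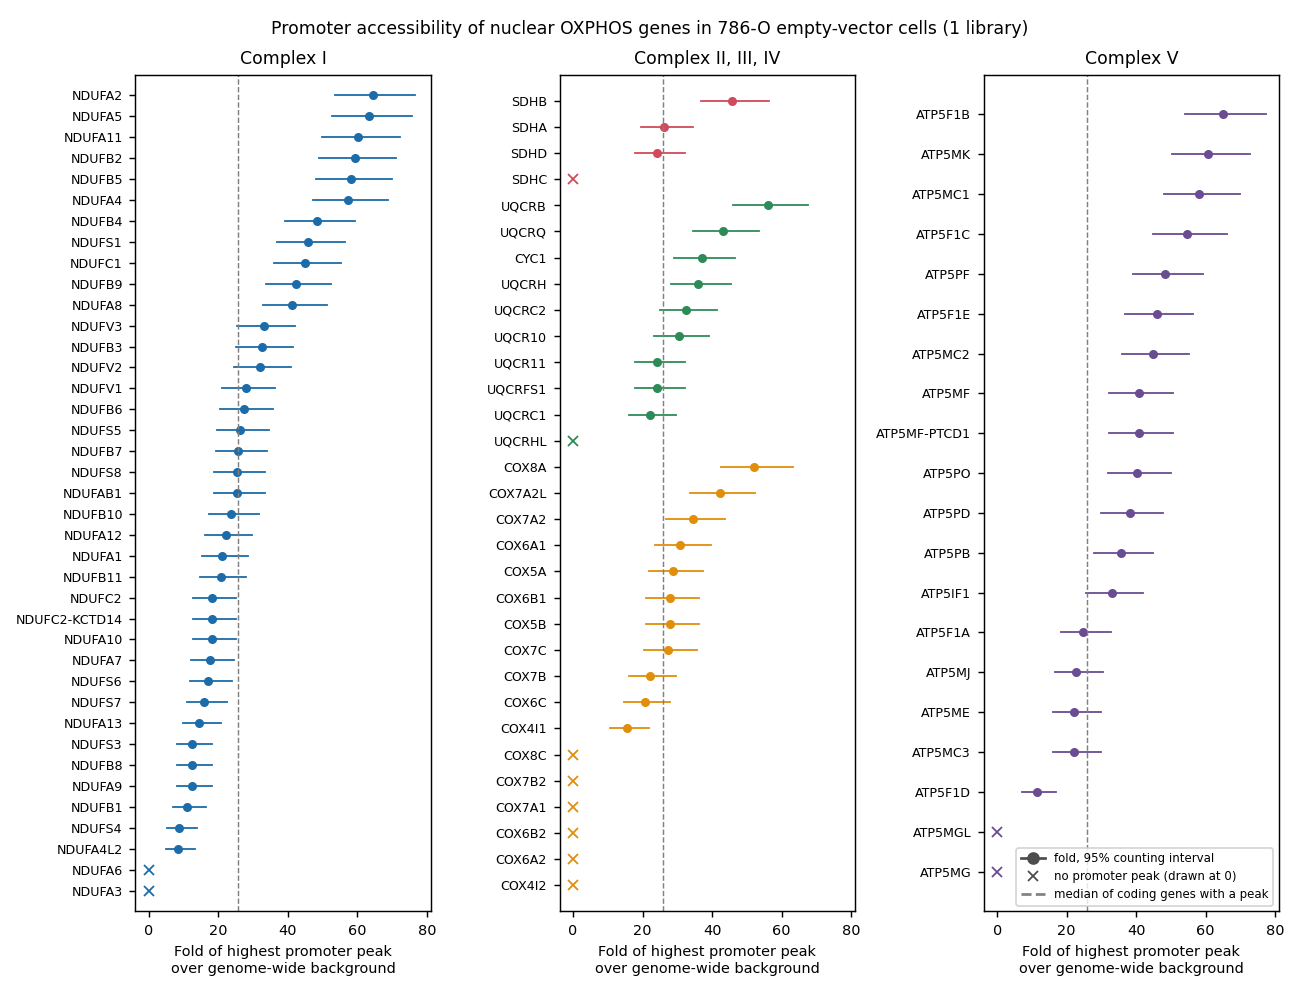
Fold of the highest promoter peak for 90 of the 91 members, by complex, with 95% counting intervals as bars and crosses at 0 for the 12 members without a promoter peak. The dashed line is the median of protein-coding genes with a peak, 25.8, and most complex V genes lie to its right.

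Complex I, the entry point for electrons from NADH, had a promoter peak at 38 of 40 genes (95%; 83.1 to 99.4). The share of all protein-coding genes was 61.4%. The median fold in complex I was 25.5 (18.0 to 33.0). Its range was the widest of the 5 complexes, from NDUFA4L2 up to NDUFA2, a small accessory subunit, at 64.4 (53.7 to 76.7). All 7 nuclear core subunits, which carry the flavin, the iron-sulphur clusters and the ubiquinone site, had a peak. Among them the iron-sulphur subunit NDUFS1 was highest at 45.9 (36.9 to 56.4). NDUFV2 (31.9), NDUFV1 (27.8) and NDUFS8 (25.2) were intermediate. NDUFS7 at 16.0 (10.9 to 22.6) and NDUFS3 at 12.4 (8.03 to 18.3) were lowest, and their intervals did not reach that of NDUFS1. These core subunits thus differed among themselves by more than counting error. The 33 accessory and other complex I genes had a peak in 31 cases (93.9%) and a median fold of 25.2.

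NDUFA5 (63.4), NDUFA11 (60.3), NDUFB2 (59.3), NDUFB5 (58.2) and NDUFA4 (57.2) followed NDUFA2 at the upper end of complex I. NDUFB1 (10.8), NDUFA9 (12.4) and NDUFB8 (12.4) stood near NDUFS4 at the lower end. The acyl carrier protein NDUFAB1, which also serves mitochondrial fatty acid synthesis, lay in the middle at 25.2 (18.8 to 33.3).

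Complex II, succinate dehydrogenase, also belongs to the citric acid cycle, and its 4 genes are known tumour suppressors. SDHB, the iron-sulphur subunit, had the highest fold at 45.9 (36.9 to 56.4). SDHA, which holds the flavin, was at 26.3 (19.6 to 34.5), and the anchor SDHD at 24.2 (17.9 to 32.1). The interval of SDHB did not overlap the other two, which did overlap each other. SDHC, the second anchor, had no summit in its promoter. Its nearest summit lay 415 bp downstream of the TSS at a fold of 14.4 (9.68 to 20.8), inside the gene, and the peak (chr1:161314129-161315313) covered the TSS. SDHC was therefore open at its start but not counted by the position of the summit.

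Complex III, which oxidises ubiquinol, had a peak at 9 of 10 genes (90.0%; 55.5 to 99.7) and a median fold of 32.5 (24.2 to 43.3). Among all protein-coding genes the share with a peak was 61.4%. UQCRB, a small accessory subunit, was highest at 56.2 (46.2 to 67.7). UQCRC1, one of the core proteins, was lowest at 22.2 (16.1 to 29.8). Between them lay UQCRQ at 43.3, the cytochrome subunit CYC1 at 37.1, the core protein UQCRC2 at 32.5 and the Rieske iron-sulphur protein UQCRFS1 at 24.2. A fold of 20 was reached by 9 of 10 complex III genes (90.0%; 55.5 to 99.7). In complex I it was reached by 25 of 40 (62.5%; 45.8 to 77.3), and the intervals overlapped. The share of all protein-coding genes was 40.1%. The gene without a peak was UQCRHL, an intronless copy of the hinge protein gene UQCRH.

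Complex IV had the lowest share, 11 of 17 genes (64.7%; 38.3 to 85.8), near the background of 61.4%. The 6 genes without a peak were COX4I2, COX6A2, COX6B2, COX7A1, COX7B2 and COX8C, and each of them is the tissue-restricted member of a pair. The 11 genes with a peak had a median fold of 27.8 (20.6 to 42.3), between COX4I1 at 15.5 (10.5 to 22) and COX8A at 52.0 (42.4 to 63.2). COX7A2L, which takes part in joining complexes III and IV into supercomplexes, was at 42.3 (33.7 to 52.4). COX5A (28.9) and COX5B (27.8), single-copy subunits, differed by less than counting error.

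Complex V had a peak at 18 of 20 genes (90.0%; 68.3 to 98.8) and the highest median fold of the 5 complexes, 40.4 (24.7 to 48.4). This rank interval overlapped that of complex I. A promoter peak was found in 61.4% of all protein-coding genes. The 5 genes of the catalytic head ranged from ATP5F1D, the delta subunit, at 11.3 (7.21 to 17.1), to ATP5F1B at 64.9. ATP5F1C, the gamma subunit that turns within the head, was at 54.6 and ATP5F1E at 45.9. ATP5F1A, the alpha subunit, reached 24.7 (18.3 to 32.7) in a peak whose summit lay 6057 bp upstream of its canonical TSS, also at the promoter of HAUS1, and 19.1 (13.5 to 26.2) at its canonical TSS. The head subunits therefore spanned the whole range of the complex.

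The 4 genes of the peripheral stalk, which keeps the head from turning, were close together at 35.6 (ATP5PB), 38.1 (ATP5PD), 40.2 (ATP5PO) and 48.4 (ATP5PF), with intervals that all overlapped. The c ring, the rotor through which protons pass, is built from 1 protein made by 3 genes that differ in their import sequences. Of these, ATP5MC1 had a fold of 58.2 (48.0 to 70.0), ATP5MC2 of 44.8 (36.0 to 55.2) and ATP5MC3 of 22.2 (16.1 to 29.8). The interval of ATP5MC3 lay below the other two, which overlapped each other, and its summit was 112 bp downstream of the canonical TSS in the promoter of another transcript. ATP5IF1, the inhibitor that limits ATP breakdown by the enzyme, was at 33.0 (25.5 to 42.1).

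**Figure D2:**
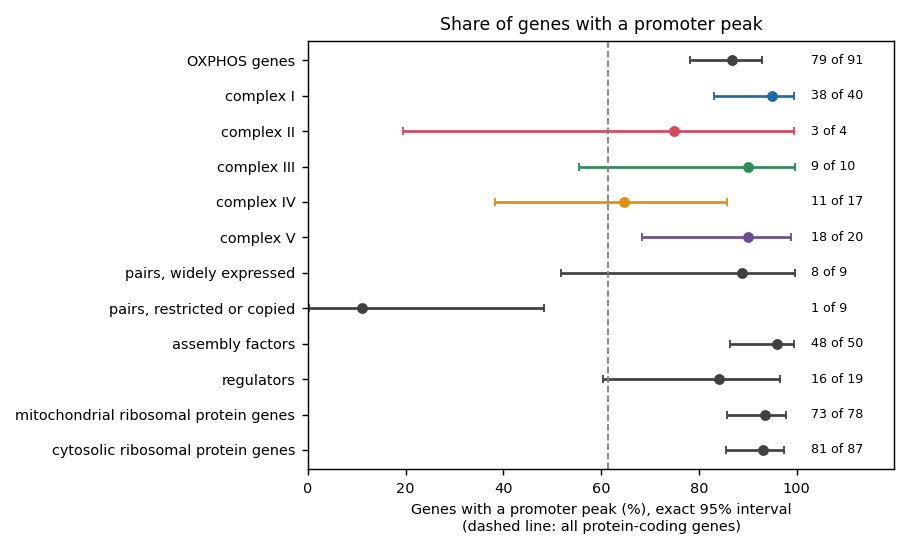
Share of genes with a promoter peak (x axis, %) in the OXPHOS genes, the 5 complexes, both sides of the pairs and the related lists, with exact 95% intervals as bars and the counts at the right. The dashed line marks the 61.4% of all protein-coding genes, which the interval of complex IV covers and that of complex I does not.

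The members were divided between the 2 genes of a pair. In 9 pairs a widely expressed gene stands beside a tissue-restricted one or a copy. The widely expressed gene had a promoter peak in 8 of 9 pairs (88.9%; 51.8 to 99.7), and its partner in 1 of 9 (11.1%; 0.281 to 48.2), beside the 61.4% of all genes. These pairs were set with earlier results of this library known, and the counts are a description. COX4I1 had a fold of 15.5, and no summit lay nearer than 3541 bp to the TSS of COX4I2, its lung form. COX6A1 had 30.9, COX7A2 had 34.5, and their heart and skeletal muscle forms COX6A2 and COX7A1 had no summit nearer than 14746 and 11214 bp. COX6B1 was at 27.8, COX7B at 22.2 and COX8A at 52.0. The nearest summits to their testis forms COX6B2, COX7B2 and COX8C were 15069, 123512 and 500526 bp away. In each of these 6 pairs the promoter of the restricted gene was therefore outside any listed peak. COX8C lies in sequence of which hg38 also holds an alternative copy, so that a closed and an unreadable promoter cannot be told apart there.

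Among the remaining pairs, UQCRH had a fold of 36.1 (28.2 to 45.5) and UQCRHL no summit nearer than 4984 bp. ATP5MG, a subunit of the membrane part of ATP synthase, was the exception on the widely expressed side. Its summit lay 251 bp downstream of the TSS at a fold of 10.3 (6.41 to 15.8), and the peak (chr11:118400576-118402161) covered the TSS. Its copy ATP5MGL had no summit nearer than 4885 bp. NDUFA4L2, a gene known to be induced by low oxygen, was the exception on the restricted side. Its weak promoter peak, at 8.24, stood 3543 bp upstream of the canonical TSS at the start of another transcript, and NDUFA4 was at 57.2 (47.1 to 68.8). Within 10 kb of the canonical TSS of NDUFA4L2 there were 5 further peaks, the highest 2158 bp upstream at 25.8 (19.2 to 33.9). At canonical starts alone the count was 8 of 9 against 0 of 9, beside 52.2% of all protein-coding genes. NDUFA4 is now known as a complex IV subunit, although its symbol places it in complex I.

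**Figure D3:**
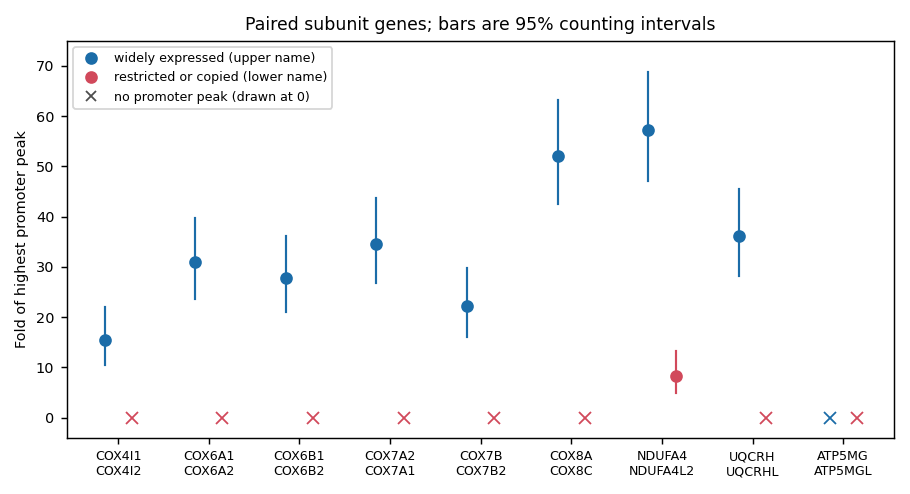
Fold of the highest promoter peak (y axis) in the 9 pairs, with the widely expressed gene at the left of each pair, 95% counting intervals as bars and crosses at 0 for genes without a promoter peak. Only NDUFA4L2, at 8.24, has a peak on the restricted side, and only ATP5MG lacks one on the other.

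Base composition and CpG content were compared within the pairs. In the 300 bases around the canonical TSS (250 before, 50 from the TSS on), G and C made up 44% to 71.0% in the widely expressed genes and 45.3% to 72.0% in the restricted ones. The ratio of observed to expected CpG ran from 0.523 to 1.12 in the widely expressed genes and from 0.194 to 0.799 in the restricted ones. The ranges overlapped, with 4 of the 9 widely expressed genes below the highest restricted gene, COX6B2. Within pairs the restricted gene had the lower ratio in 8 of 9, COX6B1 and COX6B2 being the exception. The part of CpG content in the peaks was not tested. As an example picked after the values were seen, the 100 bases before the TSS of COX6A1 (chr12:120438013-120438112, plus strand) held 7 CpG and those of COX6A2 (chr16:31428361-31428460, minus strand) held 1, at 59.0% and 55.0% G and C. Capitals mark each CpG.
COX6A1: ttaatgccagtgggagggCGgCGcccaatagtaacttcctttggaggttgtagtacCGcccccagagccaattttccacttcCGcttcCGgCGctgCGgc
COX6A2: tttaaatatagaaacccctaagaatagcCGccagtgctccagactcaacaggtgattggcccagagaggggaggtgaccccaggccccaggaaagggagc

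All 12 members without a promoter peak could be placed in 3 kinds. Of the restricted genes, 7 had no summit within 1 kb of the TSS. SDHC and ATP5MG had a peak over the TSS with a summit too far downstream. The other 3, NDUFA3, NDUFA6 and COX8C, lay in primary sequence of which hg38 holds an alternative copy. There, 10 of 765 protein-coding genes (1.31%) had a promoter peak, against 63.8% elsewhere, and the alternative sequences aligned to these 3 members held 0 peaks. Reads that match more than 1 place have low mapping quality, and the authors removed such reads. Closed and unreadable promoters cannot be told apart for NDUFA3, NDUFA6 and COX8C. The nearest summits to NDUFA3 and NDUFA6, both accessory subunits of complex I, were 82492 and 20031 bp away. The absence of a peak says only that none was listed, as the lowest fold in the list was 5.15.

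The summits stood close to the TSS on its upstream side. At the 74 canonical promoters with a peak, the median position was 86 bp upstream (interquartile range, 33.2 to 139), with 62 summits upstream and 12 at or downstream of the TSS. Within 200 bp lay 66 of the 74 (89.2%), against 78.9% of canonical promoters of all protein-coding genes. The farthest was NDUFA11, 779 bp upstream at a fold of 60.3, in a peak also in the promoter of VMAC. Next were NDUFB11 (463 bp), UQCR10 (437 bp), NDUFA4 (434 bp) and UQCR11 (429 bp). Several promoter peaks were found in 8 members (10.1%), against 21.3% of all genes with a peak. A promoter with a single summit near its start was thus the usual form. In 5 members the summit lay in the promoter of another transcript and not in the canonical one, namely ATP5MC3, COX6C, NDUFA4L2, NDUFC1 and NDUFS3. In all of these but NDUFA4L2 the peak itself still covered the canonical TSS.

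**Figure D4:**
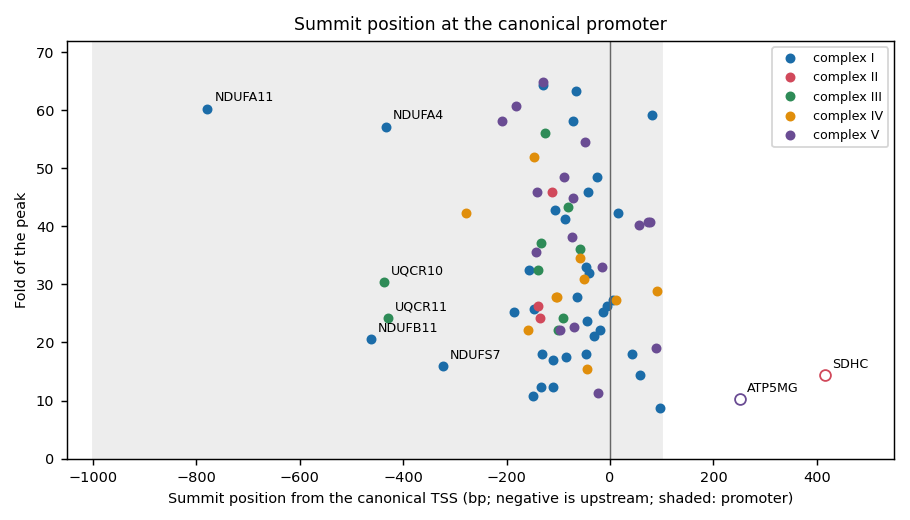
Position of the summit relative to the canonical TSS (x axis, bp, negative is upstream) and fold (y axis) for the 74 members with a canonical promoter peak, coloured by complex, with the promoter shaded. Most points lie within 200 bp of the TSS, and the open circles of ATP5MG (251 bp) and SDHC (415 bp) fall outside the promoter on the downstream side.

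Many members shared their promoter with a gene on the other strand. An opposite-strand canonical TSS of a protein-coding gene lay within 1 kb in 26 of 91 members (28.6%), against 10.0% of all protein-coding genes. Each of the 26 had a promoter peak, as did 89.7% of the 2007 protein-coding genes so placed, and in each of the 26 it was also the highest promoter peak of the partner. In 25 of the 26 the genes pointed away from each other, and the distance between the starts had a median of 170 bp (38 to 972, the largest in NDUFC1 and NAA15, which overlap). The median fold was 34.0 in the 26 and 27.8 in the 53 other members with a peak, and among all genes 31.9 and 25. Counting either strand, 37 of 79 members shared their highest promoter peak with another protein-coding gene (46.8%, against 24.1% of all genes with a peak). This count includes NDUFC2, ATP5MF and the read-through gene of each. It also includes NDUFB8, UQCR11 and COX6A1, whose only such partner had no gene name. A shared peak cannot be assigned to any single gene. Partners with a mitochondrial product included MRPL47, a mitochondrial ribosomal protein gene 156 bp from NDUFB5, and TIMM8B, an import chaperone gene 117 bp from SDHD. The cytosolic ribosomal protein gene RPS28 stood 121 bp from NDUFA7 and the splicing gene IK 199 bp from NDUFA2.

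ATP5PF shared its peak (fold 48.4; 39.2 to 59.2) with GABPA, whose product is the DNA-binding subunit of GABP and itself an ETS factor. Their starts were 68 bp apart, with 67 bases between them (chr21:25734905-25734971, given on the minus strand, that of ATP5PF). These bases, shown because 1 short stretch separates both starts and chosen after the values were seen, held the ETS motif, in capitals. The summit stood outside these bases, 89 bp upstream of the ATP5PF start and 84.5 bp from the motif.
ATP5PF: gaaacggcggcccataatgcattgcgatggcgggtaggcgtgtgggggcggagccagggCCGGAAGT

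Motif matches were counted in the 300-base promoters on both strands, as a description and not as evidence of binding. The NRF1 motif (GCATGCGC) was in 13 of 91 members (14.3%), against 4.27% of all protein-coding promoters of the same length. The ETS motif (CCGGAAGT) was also in 13 (14.3%), against 6.14%, and the YY1 motif (AAGATGGC) in 16 (17.6%), against 4.04%. None of these 3 motifs contains another, and at least 1 of them stood in 35 members (38.5%; 28.4 to 49.2), against 13.3% of all. Among genes with a promoter peak the shares were 40.5% and 18.5%. Cytosolic and mitochondrial ribosomal protein genes, at 35.6% and 41.0%, were close to the members. More than 1 of the 3 stood in ATP5PF, COX5B, NDUFA6, NDUFB5, NDUFS7, SDHB and SDHD (7.69%, against 1.12%).

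The complexes differed in which motif they held, in counts too small to rank. YY1 was in 9 promoters of complex I and 0 of 17 of complex IV. NRF1 was in 6 promoters of complex I, 2 of complex II, 0 of complex III, 2 of complex IV and 3 of complex V. ETS was in 3, 1, 3, 2 and 4 in the same order. The ERR motif (TCAAGGTCA), read by the oestrogen-related receptors, was in ATP5MC3 and SDHD alone (2.2%, against 0.185%), so that SDHD held the NRF1, ETS and ERR motifs. The SP/KLF motif (GGGCGGGG) was in 17 members (18.7%), below the 34.0% of all promoters. The cAMP response element (TGACGTCA) was in 5 (5.49%, against 2.69%) and TATAAA in 6 (6.59%, against 9.71%).

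The core of the hypoxia response element (ACGTG) was in 20 members (22%), near the 23.3% of all promoters, and CACGTG, the E-box that contains it, in 7 (7.69%, against 8.76%). The NF-Y motif (CCAAT) was in 29 (31.9%, against 36.1%), of which 9 were among the 17 genes of complex IV. Within 50 bp of the 77 distinct promoter summits the NRF1 motif was in 5 windows (6.49%, against 1.67% of all promoter summits), ETS in 4 (5.19%, against 2.93%) and YY1 in 3 (3.90%, against 1.40%). The NRF1 windows were those of ATP5F1C, ATP5MC2, ATP5ME, COX5B and SDHD. Members whose promoter held the NRF1 motif had a median fold of 36.1 (12 with a peak), and the others one of 27.8 (67), with wide overlap.

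Promoters low in G and C had a peak less often, and this was less marked among the members. All protein-coding genes were divided into 5 classes of similar size by promoter GC content. In the lowest class, 13 of 17 members had a peak (76.5%; 50.1 to 93.2), against 27.8% of all genes in that class. In the next 4 classes the members' shares were 92.9%, 88.0%, 81.2% and 100%, against 59.4%, 71.0%, 75.1% and 74.5%. The 4 without a peak in the lowest class were ATP5MGL, COX6A2, COX7B2 and UQCRHL, all restricted or copied. Below 50% G and C, 8 of 11 members had a peak, against 24.4% of 3223 genes. NDUFS4, at 40.3% the lowest in G and C, had a fold of 8.76, and COX7B, at 44%, one of 22.2.

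**Figure D5:**
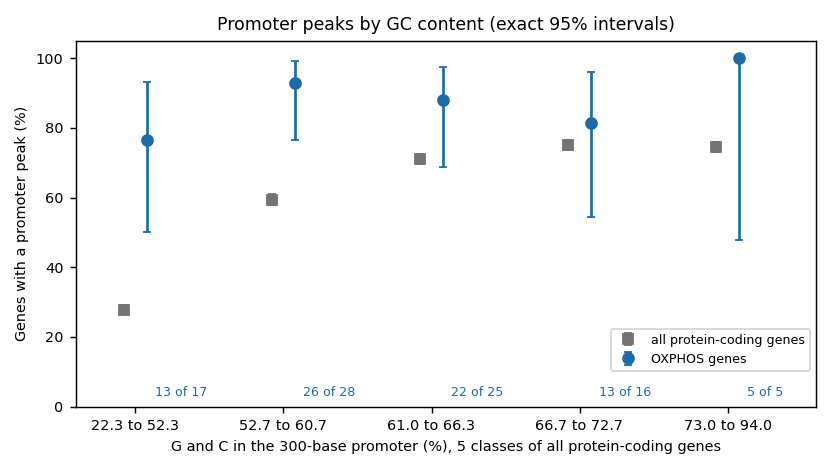
Share of genes with a promoter peak (y axis, %) by class of promoter GC content (x axis) for all protein-coding genes (squares) and OXPHOS genes (circles), with exact 95% intervals and the members' counts along the bottom. The members lie farthest above all genes in the lowest class, at 76.5% against 27.8%.

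The fold refers to a single genome-wide background, so a regional level was set beside it. Divided by the median fold of protein-coding genes within 5 Mb, the members had a median of 1.20 (1.07 to 1.29), with 53 above their neighbours and 26 below. Complex V kept the highest median at 1.33, with 15 of 18 genes above. Complex I was at 0.99, with 19 above and 19 below. Complexes II, III and IV were at 1.07, 1.21 and 1.23. Within complex III the order changed, with UQCRFS1 highest at 1.62 and UQCRB, the highest by fold, at 1.15. NDUFA11 (3.25), ATP5MC1 (2.90) and ATP5F1B (2.74) rose farthest above their neighbours, and NDUFA4L2 (0.31), COX6C (0.40) and NDUFB8 (0.40) stood lowest. The NDUFA11 peak was also in the promoter of VMAC, so its height cannot be assigned to NDUFA11 alone. Chromosome 7, which had the highest median fold of protein-coding genes (38.1), held 5 members with a median of 57.2 (40.7 to 63.4). Among these, NDUFA5, NDUFB2 and NDUFA4, high in complex I by fold, stood at 1.28, 1.34 and 1.67 over their neighbours.

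Other genes of the pathway were open to a similar extent. Of 50 assembly factors, which build the complexes without staying in them, 48 had a promoter peak (96.0%; 86.3 to 99.5) with a median fold of 27.6. They ran from NDUFAF1 at 12.4 to TMEM70, an ATP synthase assembly factor, at 143.8, the last with its summit 3859 bp upstream of the canonical TSS. SCO2 and SDHAF4 had none by the position of the summit, and peaks over their starts with a summit elsewhere were not looked for. CYCS, the cytochrome c gene, was at 91.2 (78.3 to 105.6), above every member. It stands on chromosome 7, whose protein-coding genes had a median fold of 38.1. No regional level was set beside the folds of these lists. Mitochondrial ribosomal protein genes had a peak in 73 of 78 cases (93.6%; median fold 25.2), and cytosolic ones in 81 of 87 (93.1%; 27.3). Beside these lists, 61.4% of all protein-coding genes had a promoter peak, at a median fold of 25.8.

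Regulators of OXPHOS genes had a promoter peak in 16 of 19 cases (84.2%; 60.4 to 96.6), beside 61.4% of all genes. The mitochondrial transcription factors TFB2M (80.9), TFB1M (73.2) and TFAM (62.9) were high, as were SP1 (67.0) and CREB1 (63.9). The ETS factor GABPA was at 48.4, ESRRA at 28.9, NRF1 at 25.2 and YY1 at 21.6. Among the coactivators of mitochondrial biogenesis, PPRC1 was at 49 (39.7 to 59.8), PPARGC1B at 12.4 (8.03 to 18.3) and PPARGC1A at 9.79 (6.01 to 15.2). PPRC1 thus stood above the other two by more than counting error. ESRRB, GABPB1 and POLRMT, the mitochondrial RNA polymerase gene, had no promoter peak by the position of the summit. Whether a peak with its summit outside the promoter covered their starts was not examined.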

How the data were processed

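ATAC-seq peaks of 1 library of 786-O cells with an empty vector were analysed. Per the study's methods, the authors used fastp for trimming and Bowtie2 for alignment to hg38 (version 2.3.4.3 in the submitters' processing notes), removed mitochondrial reads, reads of low mapping quality and duplicates, and called peaks with MACS2 (2.2.6) against a genome-wide background. A shift to the Tn5 cutting position was not stated. The deposited ratio was the fold of the summit pileup over background, taken after each had been raised by 1. The deposited score was 10 times the deposited −log10 q-value, rounded down, with a lowest score of 52, and a −log10 p-value stood beside it. The total read number is unknown. With a background pileup of 0.941 each fold gave a whole pileup (within 1.83e-05), between 9 and 300 over 88676 peaks. Exact Poisson 95% intervals of the pileup were turned into fold intervals, shares carry Clopper-Pearson intervals, and medians carry intervals from binomial ranks. These cover counting error only.

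Genes came from GENCODE release 44. Motifs were matched by exact letters, and no sequence from chromosome 8 was shown. Alternative sequences (261) were aligned with minimap2 2.31, keeping 10 kb or more at up to 5% divergence. The members, lists, pairs and motifs were chosen with earlier results of these data known. One member is counted throughout but its own values are not reported here. Named were the members without a peak, the highest and lowest of each complex, complex II, the c ring, the complex I core and the pairs; further members named with a value were chosen after their values were seen. With 1 library no p-value was computed. Python 3.11.15, numpy 2.4.6, pandas 2.3.3, scipy 1.17.1 and pysam 0.24.0 were used, and the functions were tested on simulated data.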

Additional observations from a re-analysis of the deposited data

How the results depend on the processing

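Over 12 other settings, 113 recomputed values stayed within the interval of the main value and 18 moved. With promoters of 1 kb or 2.5 kb to both sides, or with interval overlap, SDHC and ATP5MG gained a peak (81 of 91 members, while the share of all protein-coding genes rose from 61.4% to 65.7%, 70.3% and 65.7%), complex II and the widely expressed side of the pairs both reached 100%, and no member was lost. With a score above 200, 75 members had a peak (all genes, 52.0%), with ATP5F1D, NDUFA4L2, NDUFB1 and NDUFS4 lost, and the restricted side of the pairs fell to 0%, as it did at the canonical transcript alone (74 members; all genes, 52.2%). Outside duplicated sequence, a setting added after the data were seen, complex I reached 100%. Motif shares within 50 bp of the summit, a shorter window of 101 bases, were 6.49% for NRF1, 5.19% for ETS and 3.90% for YY1. Over all promoter summits these shares were 1.67%, 2.93% and 1.40%. For SP/KLF the share was 10.4% (all promoter summits, 13.5%), for ERR 0% (0.046%) and for CRE 0% (1.04%). It was 2.60% for the hypoxia core (10.1%), 1.30% for the E-box (3.52%) and 22.1% for NF-Y (18.2%). No paired analysis was possible because the data held a single library and no second group. Depth limits the single folds: at the lowest member pileup of 15 the fold interval ran from 4.84 to 13.3.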
